A study of Mus musculus with 4 samples.

Results

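The neutrophils described here were 51 of 8018 analysed cells from 4 single-cell libraries of mouse brain. A cell was kept when S100a8 and S100a9 together reached at least 50 unique molecular identifiers (UMIs) per 10000 of the cell. It also needed a UMI of at least 1 of Retnlg, Cxcr2, Mmp9, Mmp8, Ltf and Camp, and at most 1 of the 4 microglia genes Sall1, Siglech, P2ry12 and Tmem119. For a barcode to count as an analysed cell it needed 500 genes and 1000 UMIs or more, with no more than 10% of the UMIs mitochondrial. The levels of the selecting genes therefore describe the choice of cells and are no finding of their own.

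The study asked how IL-6 acts in the repair of brain vessels, and compared wild-type (+/+) with IL-6 knockout (-/-) mice, aged 8 to 12 weeks. The 4 groups, with 1 library each, were wild-type sham, wild-type cerebrovascular injury (CVI), knockout-labelled sham and knockout-labelled CVI. The injury was made by low-intensity pulsed ultrasound over a thinned skull after intravenous microspheres, and cells were taken at day 6, after perfusion, from a 4 mm punch. The labels put the control mice at day 6 after sham surgery in one field and call them uninjured in another, and they do not say whether the mild or the severe injury was used. All groups shared anaesthesia, enzymatic dissociation, myelin removal and positive selection with CD11b microbeads, so the shares of cells are set in part by that selection, and the labels do not say how many mice entered a library. With 1 library per group a difference between groups has no replicate check, so no p-value is given; intervals are 95% intervals that cover counting error only, and a fit over all 4 libraries was not run.

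Neutrophils are short-lived granulocytes that leave the bone marrow fully formed and reach injured tissue among the first blood cells. They carry their effector proteins in granules that are filled in sequence during maturation: the transcripts of the granule proteins are made by precursors and are mostly gone from the circulating cell, whose transcripts encode chemokine receptors, cytokines and the S100a8/S100a9 alarmin pair. IL-6 signals through Il6ra and the shared subunit Il6st to STAT3, and the related cytokine receptor Csf3r, which binds G-CSF, drives neutrophil production and release.

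The libraries held 992, 2996, 1392 and 2638 analysed cells in the order of groups above, and 15222380 to 40336067 UMIs over all barcodes. In the wild-type sham library 3261 of 4425 barcodes exceeded the mitochondrial limit, against 1098 to 1509 in the others. Il6, the targeted gene, was found at 10.5 and 4.47 counts per 1000000 UMIs (CPM) over the analysed cells of the wild-type sham and injured libraries. Under the knockout label it was higher, at 26.4 (sham) and 21.9 CPM (injured), so Il6 transcript goes against the label, and "knockout-labelled" is used throughout. The labels do not name the targeted exon, and transcripts read at the 3′ end need not report on a deletion elsewhere in the gene. Between libraries 30 barcodes of analysed cells were shared, none of them a neutrophil barcode.

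Of 15 neutrophil markers 8 also chose the cells, so only the remaining 7 (Csf3r, Ly6g, Lcn2, Ngp, Hdc, Stfa2l1 and Il1r2) bear on the label. These 7 were all detected in each sham library, Ly6g had no UMI in wild-type injured, and Stfa2l1 had none in knockout-labelled injured. The erythroid, platelet, endothelial and basophil marker lists were at 0 UMIs in all 4 groups of neutrophils. The gene S100a8 (chr3:90668978-90670035, plus strand, GRCm38) had 76613 CPM (75181 to 78066) over the pooled neutrophils, and S100a9 (chr3:90692632-90695721, minus strand) had 102434 CPM (100778 to 104112). In the remaining analysed cells S100a9 had 89.8 CPM. Retnlg, which encodes a resistin-like secreted protein of mature neutrophils, had 5534 CPM (5154 to 5935), 392 times its level in other cells. Genes that the choice of cells did not use also stood high: Hdc, the histamine-forming decarboxylase, had 1667 CPM and was detected in 46 of 51 cells, Csf3r had 1287 CPM in 43 cells, Slpi, an elastase inhibitor, had 2117 CPM in 42 cells, and Il1r2, the decoy receptor for IL-1, had 1019.6 CPM in 39 cells. Because the cells were chosen by expression, these contrasts with other cells carry no test.

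Transcripts of the primary granule proteins Mpo, Elane, Prtn3 and Ctsg were at 0 UMIs in all 51 cells, as were Mki67 and Top2a, which mark dividing cells, and the MHC class II genes H2-Aa, H2-Ab1 and H2-Eb1. Total neutrophil UMIs were 142208, so a count of 0 allows up to 3 UMIs over that sum. Among markers of other cells, microglia markers summed to 170 to 1031 CPM in the neutrophils of the 4 libraries, below the 1640 to 2788 CPM in endothelial-gated cells of the same libraries. The choice of cells limited 4 of these 10 genes and so set part of that low sum. Sall1, one of the 4, was at 0 in every library. Macrophage markers summed to 244, 975, 71.9 and 650 CPM in the order of groups, against 456, 603, 174 and 609 CPM in endothelial-gated cells. In CPM, wild-type injured neutrophils thus lay above the endothelial-gated level, and knockout-labelled injured ones, with 13 UMIs, lay near it. Neutrophils were the shallower cells, with a median of 1951 UMIs against 4704 in endothelial-gated cells. CPM does not adjust for this, and stray RNA per cell was not compared. The border-macrophage genes Ms4a7, Mrc1, Pf4 and Cd163 were at 0. Neural markers summed to 219, 244, 252 and 249.8 CPM against 158, 69.1, 192 and 947 CPM. For the B cell list, of which 1 gene was detected, the sums were 122, 113, 71.9 and 299.8 CPM against 22.5, 94.3, 4.04 and 8.54 CPM. The part of RNA from such cells in the results below was not tested. Monocyte markers summed to 511, 675, 899 and 1949 CPM in the wild-type sham, wild-type injured, knockout-labelled sham and knockout-labelled injured neutrophils.

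The high value of the knockout-labelled injured library came with 1 of its 7 neutrophils. That cell carried 4 of 6 monocyte genes, among them 3 UMIs of the chemokine receptor Ccr2, 2 of F13a1 and 8 of Ly6c2, together with 63 UMIs of Lyz2 and 77 of Chil3. It held 7072 UMIs, 35.3% of all neutrophil UMIs of its library, had only Mmp8 (1 UMI) of the 6 neutrophil genes, and had no Retnlg or Cxcr2. Without this cell the neutrophil share of its library was 0.227% of analysed cells. The knockout-labelled injured to sham ratio of shares was then 0.633, and the ratio to wild-type injured 0.243. The pooled counts of calls and of ribosomal protein genes are given below with and without it. Most other values of this library, among them the calls within the knockout-labelled pair, are given only with it.

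The neutrophil share of analysed cells was close to 1% in the wild-type libraries and lower in the knockout-labelled ones, an order that depends on the depth limit given below. Wild-type sham held 11 neutrophils, 1.11% (Clopper-Pearson 0.555 to 1.98), and wild-type injured held 28, 0.935% (0.622 to 1.35). Knockout-labelled sham held 5, 0.359% (0.117 to 0.836), and knockout-labelled injured held 7, 0.265% (0.107 to 0.546). The injured to sham ratio of shares was 0.843 (0.407 to 1.88) for the wild-type pair, against 0.739 (0.202 to 2.95) for the knockout-labelled one, so at this depth no change with injury was detectable in either. The knockout-labelled to wild-type ratio was 0.284 (0.105 to 0.665) between the injured libraries and 0.324 (0.0882 to 1.01) between the sham libraries, whose interval includes 1. Spread between mice was not measured, and how far microbead recovery sets these shares was not tested.

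**Figure D1:**
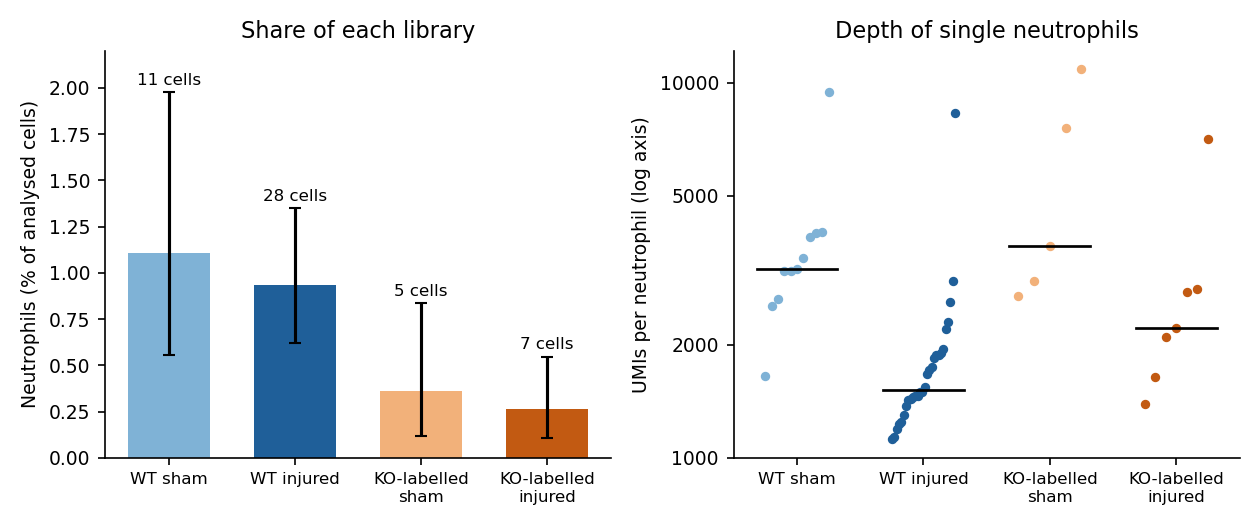
The left panel plots neutrophils as a percentage of analysed cells in each of the 4 libraries, with Clopper-Pearson 95% intervals as error bars; the right panel plots the UMIs of each neutrophil on a log axis, 1 point per cell, with bars at the library medians. The wild-type shares lie near 1% and the knockout-labelled ones under 0.4%, and most wild-type injured neutrophils lie under 2000 UMIs.

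Depth differed between the groups of neutrophils. Their median was 1951 UMIs and 930 genes, against 9287.5 UMIs in microglia-gated, 11114 in monocyte or macrophage-gated and 4704 in endothelial-gated cells. By library the median was 3188 UMIs in wild-type sham, 1520.5 in wild-type injured, 3671 in knockout-labelled sham and 2217 in knockout-labelled injured. With a stricter limit of 2000 UMIs and 1000 genes, 20 neutrophils remained: 9 of 797 analysed cells in wild-type sham, 4 of 2800 in wild-type injured, 5 of 1190 in knockout-labelled sham and 2 of 2380 in knockout-labelled injured. The wild-type injured to sham ratio of shares was then 0.127, and the knockout-labelled one 0.200, in place of 0.843 and 0.739. The shares became 1.13%, 0.143%, 0.420% and 0.0840% in the order of groups, so knockout-labelled sham then lay above wild-type injured. The knockout-labelled to wild-type ratio was 0.588 between the injured libraries and 0.372 between the sham libraries, in place of 0.284 and 0.324. Both share comparisons thus moved with the depth limit, and the deeper neutrophils were relatively rarer in the injured libraries.

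The S100a8 and S100a9 limit passed through a sparse range. The nearest cells inside it had 107, 110 and 126 UMIs per 10000 and the nearest outside had 43.2, 36.2 and 24.1, all of them from the wild-type injured library. In that library 154 cells met the other criteria, of which 28 passed, 6 lay between 5 and 50 per 10000 and 120 lay under 5. In the 3 other libraries no cell lay between 5 and 50. A further 17 cells met the S100 and neutrophil-gene criteria but carried more than 1 microglia gene, 9 of them in wild-type sham. They had a median of 12587 UMIs, and 4 were among the cells that Scrublet, a doublet caller, scored highest, whereas none of the 51 neutrophils were.

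A small set of granule-rich cells stood apart within the neutrophils. These 5 cells, 1 each from wild-type sham, wild-type injured and knockout-labelled injured and 2 from knockout-labelled sham, held 78 to 850 UMIs of Ngp, Camp and Ltf together, whereas each of the other 46 held at most 1. Ngp and Camp encode a cystatin-like and a cathelicidin protein and Ltf encodes lactoferrin, all of the secondary granule. The 5 cells carried 2898 of the 2900 UMIs of these genes. The separation was seen in the data and the cells were then split on it, so what follows describes the 2 kinds of cell without a test.

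The promoters of Ngp and Ltf, which with Camp set these cells apart, are shown because both hold a match to TTGCNNAA, the core of the motif bound by C/EBP factors, which act in granule gene transcription. The window of Camp is not shown, so these windows do not speak for every gene of the set. Windows are bases 250 to 66 before the RefSeq gene start on GRCm38.p6, 5′ to 3′ on the gene's strand, with matches on either strand in capitals.
Ngp, chr9:110419558-110419742, plus strand: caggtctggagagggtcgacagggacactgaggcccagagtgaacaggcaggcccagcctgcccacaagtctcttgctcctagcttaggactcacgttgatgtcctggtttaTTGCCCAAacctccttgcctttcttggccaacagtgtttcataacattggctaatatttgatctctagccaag
Ltf, chr9:111019042-111019226, plus strand: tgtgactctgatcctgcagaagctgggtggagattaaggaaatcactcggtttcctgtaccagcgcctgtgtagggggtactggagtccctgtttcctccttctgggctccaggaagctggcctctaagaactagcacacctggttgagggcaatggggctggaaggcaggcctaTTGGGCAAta
The motif was found in 7.66% of the 27025 windows of this length, and a match of letters is not evidence of binding.

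The granule-rich cells and the others divided the transcripts of the neutrophil life course between them. Il1b, which encodes IL-1 beta, had no UMI in the 5 granule-rich cells and at least 1 UMI in all 46 others, with 1213 UMIs in all. Against the floor of 3 UMIs over the group, Il1b was at least 147-fold lower in the granule-rich cells, Cxcl2, a neutrophil-attracting chemokine, at least 33.1-fold lower, Ccl6 at least 26.5-fold lower and Ccl4 at least 17.9-fold lower. Csf3r gave 4 UMIs in the granule-rich cells and 179 in the other cells. In the other direction, Lcn2, an iron-siderophore-binding granule protein, was 12.1-fold higher (9.73 to 15.2), Cybb, the catalytic subunit of the NADPH oxidase, 13.1-fold higher (8.38 to 21.3), Ifitm6, an interferon-induced membrane protein, 10.1-fold higher (6.89 to 15.3) and Anxa1, the pro-resolving annexin, 8.03-fold higher (6.07 to 10.7). The alarmin genes were higher as well, S100a8 by 3.11-fold and S100a9 by 2.88-fold. Chil3 gave 228 UMIs in the granule-rich cells, and all 77 of its UMIs elsewhere came from the cell with 4 monocyte genes. Granule-rich cells were deep, with a median of 8299 UMIs against 1893, and made up 23.0% of neutrophil UMIs in wild-type sham, 15.6% in wild-type injured and 66.4% in knockout-labelled sham. Sums over a library therefore lean on 1 or 2 such cells, and several comparisons below are also given without them. In the injury comparison Ngp, Ltf, Cd177, Ly6g and Ldha had too few UMIs left to be tested without these cells, as had Cd177, Ly6g, Cybb and Tmsb10 in the comparison of genotype labels.

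**Figure D2:**
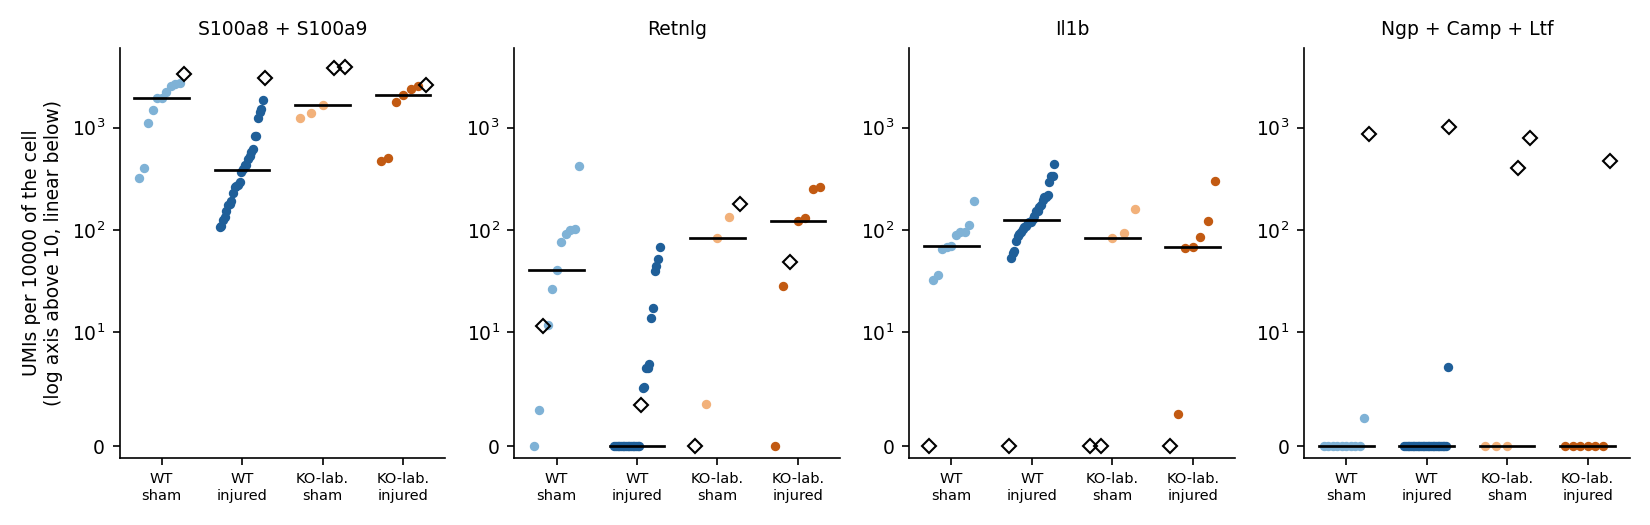
Each panel plots 1 measure per neutrophil in UMIs per 10000 of the cell (S100a8 with S100a9, Retnlg, Il1b, and Ngp with Camp and Ltf) for the 4 libraries, on an axis linear below 10 and logarithmic above; circles are cells, open diamonds the 5 granule-rich cells and bars the library medians. The 5 diamonds stand apart in the granule genes and lie at 0 for Il1b, and S100a8 with S100a9 has its lowest median, 381, in wild-type injured cells.

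Injured and sham neutrophils were compared by summing raw UMIs over the 35 injured and the 16 sham cells. A gene was tested with at least 30 UMIs in at least 5 cells and called at 2-fold or more on the log2 scale with 50 CPM added to both sides. Of 670 genes tested, 114 (17%) were called higher in injured neutrophils and 31 (4.63%) lower, with a median log2 ratio of 0.23 over all genes. In the wild-type pair alone 81 of 472 (17.2%) were higher and 27 (5.72%) lower, and in the knockout-labelled pair 49 of 182 (26.9%) were higher and 18 (9.89%) lower. Both injured libraries lay above both sham libraries for 93 of the 114 genes, and below for 21 of the 31, where 284 of all 670 genes had libraries without overlap in one direction or the other. The split depends on scaling, because S100a8 and S100a9 take up so much of the RNA: scaled without these 2 genes, 77 were higher and 61 lower, 55.8% higher in place of 78.6%, and the median was -0.0014. With median-of-ratios scaling 76 were higher and 58 lower. Among cells of at least 2000 UMIs and 1000 genes 80 were higher and 58 lower, with a median of -0.12. Without the cell that carries 4 monocyte genes 93 were higher and 27 lower, and without the granule-rich cells 76 and 41.

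S100a8 and S100a9 chose the cells, so their levels in sham and injured libraries are a description with no weight as a finding. Together S100a8 and S100a9 made up 21.9% of neutrophil UMIs in wild-type sham and 9.42% in wild-type injured, and 30.4% and 14.9% in the sham and injured libraries with the knockout label. S100a8 was 93641 CPM (90704 to 96649) in wild-type sham and 37133 CPM (35515 to 38805) in wild-type injured. In the knockout-labelled libraries it was 142025 CPM (137630 to 146525) in sham and 55964 CPM (52734 to 59339.6) in injured. Both injured libraries lay below both sham libraries, by 2.68-fold in the sums (2.57 to 2.79), and S100a9 was 2.10-fold lower (2.03 to 2.17). Over single cells the 2 genes gave a lowest, median and highest value per 10000 UMIs of 320, 1961 and 3364 in wild-type sham and of 107, 381 and 3034 in wild-type injured. In knockout-labelled sham the values were 1237, 1659 and 3881, and in knockout-labelled injured 472, 2070 and 2582. The median cell was lower with injury in wild type and not in the knockout-labelled pair, and the difference between the pairs was not tested. The log2 ratio of S100a8 was -1.29 without the granule-rich cells and -1.02 among cells of at least 2000 UMIs.

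The maturation gene Retnlg also chose the cells and is described by library in the same way. Retnlg (chr16:48872621-48874496, plus strand) was 7866 CPM (7032 to 8773) in wild-type sham and 956 CPM (712 to 1258) in wild-type injured, and 7623 CPM (6631 to 8721) and 10044 CPM (8703 to 11532) in the sham and injured libraries with the knockout label. The wild-type injured library was low and the other 3 lay close together, so the 2.26-fold lower sum (1.94 to 2.64) was -2.98 on the log2 scale in the wild-type pair and 0.40 in the knockout-labelled pair. A Retnlg UMI was found in 10 of 11, 12 of 28, 4 of 5 and 6 of 7 cells in the order of groups. With each cell thinned to 1000 UMIs the shares were 79.6%, 33.2%, 67.4% and 85.6%, against 0% of endothelial-gated cells, which had the greater median depth given above. Mmp8, the neutrophil collagenase and also a selecting gene, was lowest in wild-type injured, with 1291, 225, 2265 and 1649 CPM in the order of groups, and was called 2.74-fold lower in the injured sum (1.93 to 3.96).

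Ly6g, the surface marker by which mouse neutrophils are usually stained, had 463, 0, 575 and 449.7 CPM in the order of groups, from 7 cells in all. Granule-rich cells held 32 of these UMIs and the other cells 12, and the injury comparison was not testable without the granule-rich cells. The wild-type injured library had no Ly6g UMI in 28 cells, with an upper limit of 69.2 CPM on counting error. The gelatinase Mmp9 had 1656, 1163, 2697 and 1599 CPM, lower in both injured libraries by less than the 2-fold limit. The chemokine receptor Cxcr2 had 1242, 1050.2, 647 and 799 CPM, with overlapping groups. Of the 12 maturation genes tested, 2 were called lower with injury (Ly6g and the selecting gene Retnlg) and none higher, with a median log2 ratio of -0.20 beside 0.23 for all genes. Over all genes 4.63% were called lower.

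Among 11 secondary granule genes tested, 4 were called lower in the injured sums (Ngp, Ltf, Cd177 and Mmp8) and none higher, with a median of -0.84. Ltf and Mmp8 are selecting genes, as is Camp, and Ngp, Ltf and Cd177 were read almost wholly from the 5 granule-rich cells. Ngp had 9912 CPM in wild-type sham, 5795 in wild-type injured, 19919.5 in knockout-labelled sham and 1699 in knockout-labelled injured. The injured libraries were below the sham ones, 2.98-fold in the sums (2.63 to 3.38), but 961 of the sham UMIs and 343 of the injured ones came almost wholly from the granule-rich cells, and Ngp was not testable without them. Camp, at 6892, 7802, 16432 and 1199 CPM, had libraries that overlapped. Among gelatinase granule and secretory genes 2 of 6 were called lower, the formyl peptide receptor Fpr2 by 2.74-fold and the sheddase Adam8 by 2.32-fold, and none higher. For both lists the share of all genes called lower was 4.63%.

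The genes furthest down in injured neutrophils were outside the granule lists. Wfdc17, a small secreted whey-acidic-protein family member, was 1680.4 CPM in wild-type sham and 263 in wild-type injured, and 1474 and 199.9 CPM in the knockout-labelled ones. The injured libraries lay below both sham ones, by 6.51-fold in the sums (3.93 to 11.4), and Wfdc17 stayed lower without the granule-rich cells (log2 -3.03) and among cells of at least 2000 UMIs (-2.76). Wfdc21 was 2314, 619, 4854 and 949 CPM and 4.71-fold lower (3.47 to 6.49). Ifitm6 was 1461, 281, 2661 and 499.7 CPM and 5.71-fold lower (3.70 to 9.13), or -1.45 on the log2 scale without the granule-rich cells in place of -2.35. For these 3 genes the injured level lay below the sham level in both genotype labels. Wfdc17 did not meet the limits for testing in the knockout-labelled pair alone.

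Genes of sugar use were lower where they were called. Ldha, lactate dehydrogenase A, had 414, 169, 827 and 149.9 CPM in the order of groups and was 3.55-fold lower (1.83 to 7.43), and Slc2a3, a glucose transporter of neutrophils, had 463, 75.0, 359.6 and 299.8 CPM and was 3.09-fold lower (1.46 to 7.10). These 2 of 8 genes tested in the glycolysis and hypoxia list were called, both lower, with a list median of -0.39, beside 4.63% of all genes called lower. Neither pair alone had a median below 0. It was 0.17 in the wild-type pair (4 tested, 1 lower) and 0.39 in the knockout-labelled pair (2 tested, none called). Among sugar-use genes Pkm, Pgam1 and Aldoa lay higher in both injured libraries than in both sham ones, and Pgk1 and Slc16a3 lay lower. Arg2, the mitochondrial arginase, was 3.94-fold lower. Counts behind these genes were small, 39 UMIs of Slc2a3 in all.

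**Figure D3:**
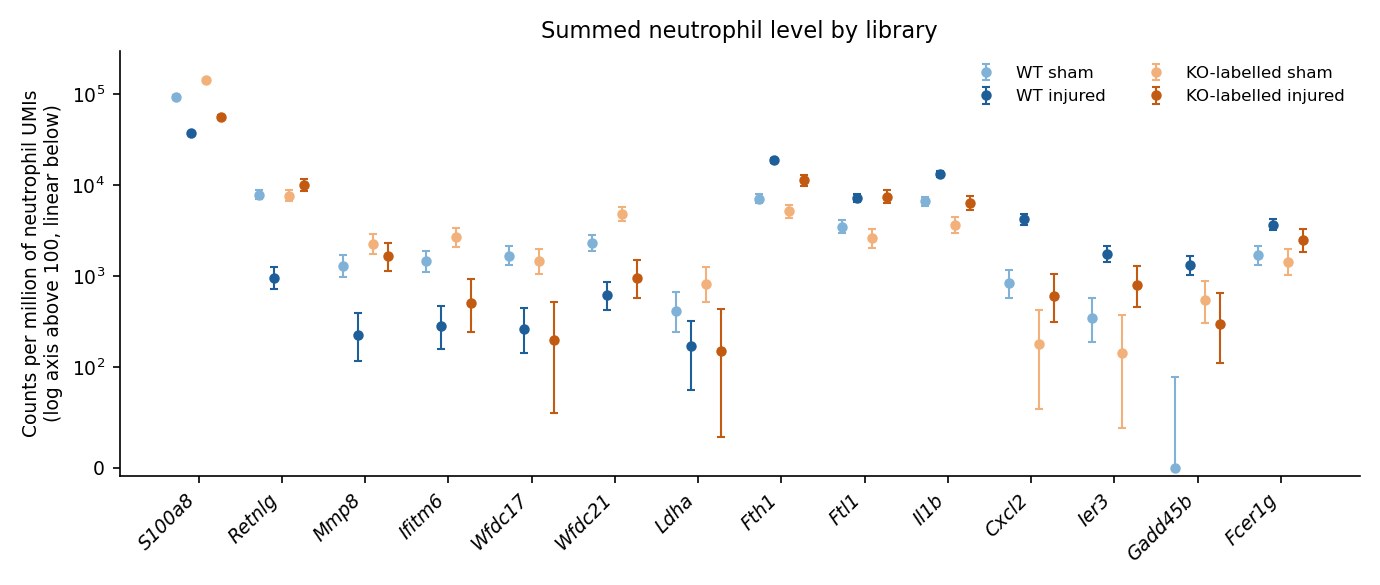
Summed neutrophil CPM of selected genes in the 4 libraries is plotted on an axis that is linear below 100 and logarithmic above, with exact Poisson 95% intervals. S100a8, Wfdc17 and Ifitm6 lie lower in both injured libraries, Fth1 lies higher in both, and Retnlg is low only in the wild-type injured library.

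Cytokine and chemokine genes were compared next. Of the 7 tested, 3 were called higher (Il1b, Cxcl2 and Ccl3) and none lower, with a median of 0.57, beside 17% of all genes called higher. In the wild-type pair alone the 3 were higher and Ccl6 (-1.51) and Osm (-1.19) lower. Il1b (chr2:129364570-129371139, minus strand) was 6599.9 CPM (5837 to 7434) in wild-type sham and 13353 CPM (12389.9 to 14371) in wild-type injured, and 3667 CPM (2990.4 to 4452) and 6396 CPM (5336 to 7605) in the knockout-labelled ones. Injured was above sham within each genotype label, by 1.01 and 0.79 on the log2 scale, but the knockout-labelled injured library lay below wild-type sham. The sums differed 2.11-fold (1.87 to 2.40), or 1.07 on the log2 scale. Scaled without S100a8 and S100a9 the log2 ratio was 0.82, under the 2-fold limit. Without the granule-rich cells, which hold no Il1b, the log2 ratio was 0.54, and among cells of at least 2000 UMIs it was -0.57, so the direction of Il1b depends on which cells are counted. Per 10000 UMIs of the cell the median was 69.4, 124, 84.4 and 68.6 in the order of groups.

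Cxcl2 (chr5:90903871-90905938, plus strand) was 828 CPM (573 to 1157) in wild-type sham, 4182 CPM (3651 to 4769) in wild-type injured, 179.8 CPM (58.4 to 419.5) in knockout-labelled sham and 599.6 CPM (309.8 to 1047) in knockout-labelled injured. Wild-type injured stood above all others, and the sums differed 5.66-fold (4.02 to 8.16). A Cxcl2 UMI was found in 3 of 11, 14 of 28, 2 of 5 and 2 of 7 cells, and after thinning to 1000 UMIs in 15.4%, 46.4%, 26.2% and 19.4%, against 1.79% of endothelial-gated cells (8.79% without thinning). Single cells weighed heavily, since 1 cell held 91.2% of the Cxcl2 UMIs of wild-type sham. Among cells of at least 2000 UMIs the log2 ratio was 0.03 in place of 2.40. Ccl3, a macrophage inflammatory chemokine, was at 0 UMIs in both sham libraries and at 750.2 CPM in wild-type injured and 1 UMI in knockout-labelled injured, at least 12.8-fold higher against the floor of 3 UMIs over the sham cells. It came from 8 of 28 wild-type injured cells and 1 of 7 knockout-labelled injured cells, or 20.8% of wild-type injured cells after thinning, beside 5.37% of endothelial-gated cells (21.2% without thinning).

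The promoters of Cxcl2 and Il1b are shown as the leading chemokine and cytokine genes of these cells, with matches to GGG, any 5 bases, then CC, the outline of the site bound by NF-kB, in capitals on the same window and build.
Cxcl2, chr5:90903649-90903833, plus strand: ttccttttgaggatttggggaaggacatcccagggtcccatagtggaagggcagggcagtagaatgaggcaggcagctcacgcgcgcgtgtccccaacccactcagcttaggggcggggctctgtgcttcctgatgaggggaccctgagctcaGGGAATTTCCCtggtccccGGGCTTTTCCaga
Il1b, chr2:129371205-129371389, minus strand: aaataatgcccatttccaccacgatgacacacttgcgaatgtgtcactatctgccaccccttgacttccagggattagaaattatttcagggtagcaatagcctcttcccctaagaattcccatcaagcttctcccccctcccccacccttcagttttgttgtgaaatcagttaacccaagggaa
Both strands were searched: Cxcl2 held 3 matches, of which the first 2 overlap, and Il1b none in this window, where 33.6% of all 27025 windows held at least 1. None of the 4 windows held the other motif. The window of Ccl3, searched as well and not printed, held no match to either motif.

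Both ferritin genes were higher in both injured libraries. Fth1, the ferritin heavy chain (chr19:9980598-9985098, plus strand), was 7063 CPM (6273 to 7924) in wild-type sham and 18660.2 CPM (17519 to 19857) in wild-type injured, and 5178 CPM (4367 to 6096) and 11293 CPM (9868 to 12865) in the knockout-labelled ones. Both injured values lay above both sham values, by 2.64-fold in the sums (2.37 to 2.95). Ftl1, the light chain, was 3483, 7183, 2589 and 7445 CPM and 2.32-fold higher (1.98 to 2.74). Every one of the 51 cells had UMIs of both genes. Among cells of at least 2000 UMIs the log2 ratio of Fth1 was 0.74 in place of 1.40. Scaled without S100a8 and S100a9, Fth1 was at 1.14 and Ftl1 at 0.95, which is under the 2-fold limit. In endothelial-gated cells Fth1 was 2558, 3533, 2437 and 2764 CPM, below the neutrophil level in each library. Microglia-gated cells had 3381, 9149, 3276 and 6691 CPM. Monocyte or macrophage-gated cells had 8526, 21153.5, 7414 and 16253 CPM, above the neutrophil level in each library. Higher Fth1 in both injured libraries was thus shared with these other myeloid cells. Of 5 iron-handling genes tested, Fth1 and Ftl1 were called higher and Ltf lower, beside 17% and 4.63% of all genes.

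Receptor, early-response and survival genes followed. Fcer1g, the signalling chain of Fc receptors, was 1705, 3676, 1438 and 2498 CPM in the order of groups and 2.10-fold higher (1.67 to 2.65), and Fcgr3 was 2.72-fold higher. They were the 2 of 12 pattern recognition and Fc receptor genes called, a share near that of all genes, with a median of 0.36. Ier3, an immediate early survival gene, was 341, 1763, 144 and 799 CPM and 5.74-fold higher (3.47 to 10.0), and Gadd45b, a stress-response gene, was 0, 1313, 539 and 299.8 CPM. Ier3 with Egr1 and Ier2 were the 3 of 13 genes called, all higher, in a list of transcripts that respond to tissue dissociation (median 0.64). Beside this, 17% of all genes were called higher, and the part of dissociation in the 3 genes was not tested. Bcl2a1b, an anti-apoptotic Bcl2 relative whose near-identical copies can share reads, was 3.76-fold higher. Bcl2a1b and Gadd45b were the 2 of 6 survival genes called, both higher, with a median of 0.66, beside 17% of all genes called higher. Interferon-response genes went both ways: Isg15, Rsad2 and Ifi27l2a were called higher and Ifitm1 and Ifitm6 lower among 13 tested. Over all genes 17% were called higher and 4.63% lower. Isg15 was 682, 1444, 179.8 and 199.9 CPM, higher only in wild-type injured, and its log2 ratio of 1.13 was -1.24 among cells of at least 2000 UMIs. Scaled without S100a8 and S100a9, the log2 ratios of Fcer1g (0.80), Egr1 (0.82), Ier2 (0.88) and Isg15 (0.90) fell under the 2-fold limit. Those of Fcgr3, Ier3, Gadd45b, Bcl2a1b, Rsad2 and Ifi27l2a stayed at 2-fold or more.

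Genes of the NADPH oxidase gave no call in either direction among 6 tested (median -0.13), nor did the 2 tested genes of extracellular trap formation, the 3 of lipid mediators or the 9 of IL-6 family and G-CSF receptors and STAT3 targets (median 0.25). Within single pairs some were called: Cybb was lower in the knockout-labelled pair (-1.32), and in the wild-type pair Pim1 (1.01), Junb (1.03) and the lipid mediator gene Ptgs2 (1.32) were higher and Osm (-1.19) lower. Cyba, the small oxidase subunit, had 1388, 1219, 1043 and 1449 CPM in the order of groups. With 1 library per group these values do not show that such genes were equal.

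Cytosolic ribosomal protein genes made up 46 of the 114 higher genes. Of 70 tested, none was lower and the median log2 ratio was 1.15. Ribosomal protein UMIs were 3.38% and 6.02% of neutrophil UMIs in wild-type sham and injured, and 2.29% and 8.39% in the knockout-labelled ones. Without the cell with 4 monocyte genes 27 of 66 were higher (median 0.86), without the granule-rich cells 33 of 68 (0.98), and in the wild-type pair alone 23 of 64 (0.81).

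Several of the genes with the largest higher calls are abundant in the microglia and macrophages of the same libraries. Apoe, a lipid-carrying apolipoprotein (chr7:19696109-19699188, plus strand), was 24.4 CPM in wild-type sham neutrophils and 2907 in wild-type injured ones, 0 in knockout-labelled sham and 799 in knockout-labelled injured. Endothelial-gated cells of the same libraries had 1076, 2706, 1222 and 2021 CPM, so the neutrophil level was near theirs only in the wild-type injured library, and microglia-gated cells had 1308, 45606, 1040 and 13725 CPM. The complement gene C1qa was 48.7, 469, 71.9 and 299.8 CPM in neutrophils and 248, 251, 70.7 and 296 in endothelial-gated cells. Cathepsin B, Ctsb, was 48.7, 844, 36.0 and 299.8 CPM against 299, 400, 109 and 290. Cd63, a granule and lysosome tetraspanin, was 97.4, 881, 0 and 149.9 CPM against 45.1, 101, 90.9 and 103 CPM, so that in wild-type injured neutrophils it lay above that background. CPM does not adjust for the lower depth of neutrophils, and the part of RNA from other cells in these calls was not tested further.

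**Figure D4:**
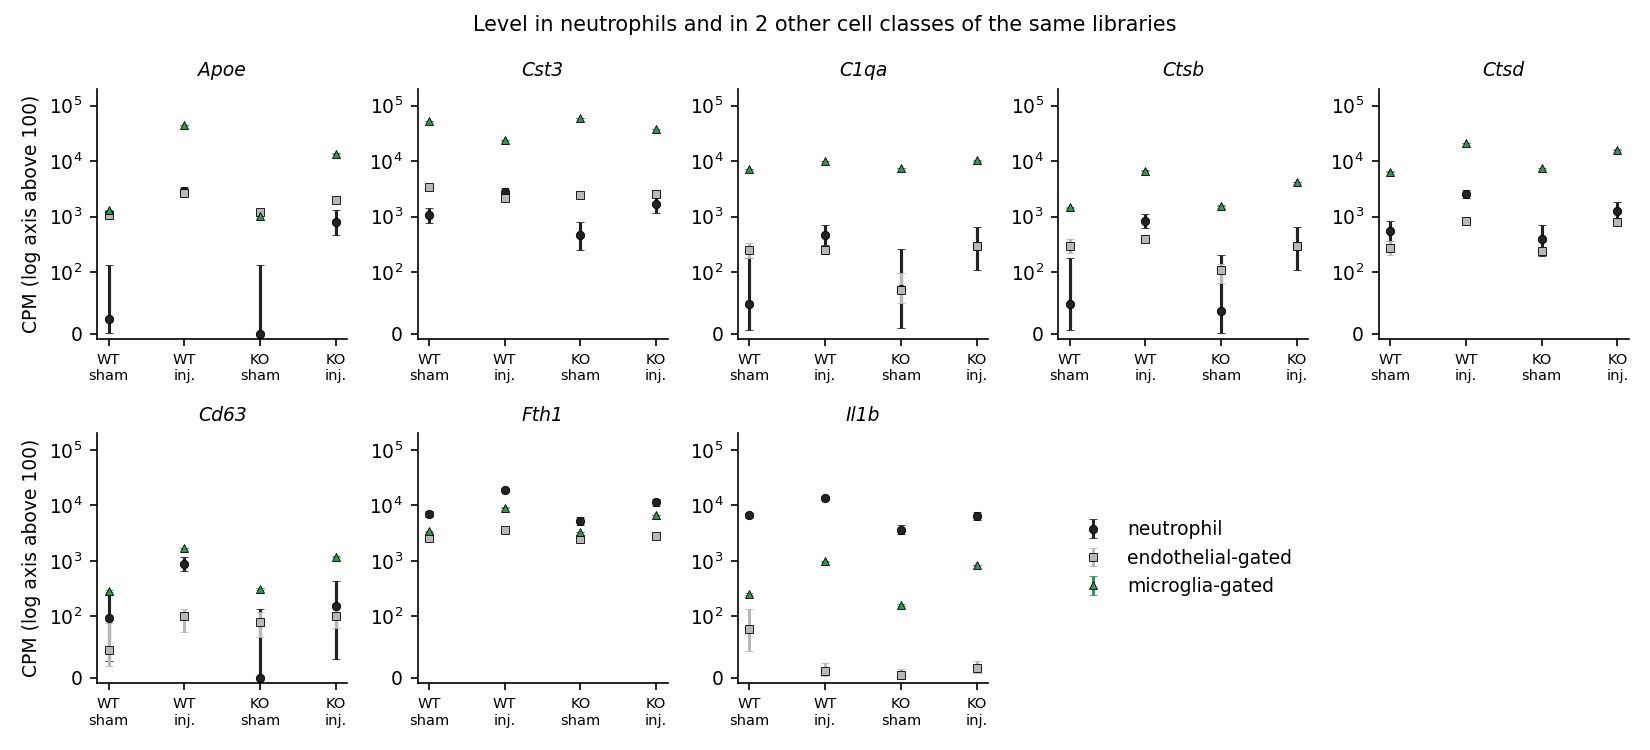
CPM of 8 genes is plotted by library for neutrophils, microglia-gated and endothelial-gated cells (axis linear below 100 and logarithmic above), with 95% counting intervals; KO marks the knockout-labelled libraries. Apoe in wild-type injured neutrophils reaches the endothelial-gated level of 2706 CPM, while Il1b and Fth1 in neutrophils lie above the endothelial-gated cells in each library.

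Knockout-labelled neutrophils were compared with wild-type ones over the sums of 12 and 39 cells. Of the same 670 genes, 20 (2.99%) were called higher in knockout-labelled cells and 85 (12.7%) lower, with a median of -0.24. Between the injured libraries alone 25 of 379 (6.6%) were higher and 69 (18.2%) lower, and between the sham libraries 10 of 269 (3.72%) were higher and 44 (16.4%) lower. Scaling moved the split here too: 35 higher and 55 lower without S100a8 and S100a9 in the total, 38.9% higher in place of 19.0%, and 42 higher and 45 lower with median-of-ratios scaling. Without the cell that carries 4 monocyte genes 19 were higher and 108 lower, and without the granule-rich cells 31 and 63. This comparison and the one above use the same 4 libraries.

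Chemokine and cytokine genes that were called were lower in the knockout-labelled sums. Of 7 tested, Il1b, Il1rn, Cxcl2 and Ccl3 were called lower and none higher, with a median of -1.11, beside 12.7% of all genes called lower. Between the injured libraries alone 4 of 5 tested were lower and 1, Ccl6, was higher. Cxcl2 was 7.66-fold lower (4.69 to 13.4), by -1.93 on the log2 scale between the sham libraries and by -2.70 between the injured ones, and -2.22 among cells of at least 2000 UMIs. The sham value rests on 1 wild-type cell, which held 31 of the 34 Cxcl2 UMIs of its library and is also among the deeper cells. A Cxcl2 UMI was found in 3 of 11 wild-type sham cells and 2 of 5 knockout-labelled sham cells. Il1b was 2.17-fold lower (1.87 to 2.51), -0.84 and -1.06 in the sham and injured pairs, and -0.62 without the granule-rich cells, which take the largest share of UMIs in knockout-labelled sham. Scaled without S100a8 and S100a9 its log2 ratio was -0.95, under the 2-fold limit. With the limit on microglia markers lifted Il1b had the opposite sign (0.27).

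Genes linked to ageing and tissue residence were lower as well, 3 of 5 tested (Cxcr4, Ccr1 and Cd63) with a median of -1.34, beside 12.7% of all genes called lower. Between the sham libraries alone the median was 0.59, with 1 gene higher and 1 lower of 3 tested. The chemokine receptor Cxcr4, which returns aged neutrophils to the marrow, was 584 and 581 CPM in the wild-type sham and injured libraries and 144 and 199.9 CPM in the knockout-labelled ones, 3.48-fold lower (1.65 to 8.47). Ccr1 was 877 and 1050.2 CPM against 324 and 399.7 CPM, 2.74-fold lower (1.62 to 4.91). For both genes the 2 knockout-labelled libraries lay below the 2 wild-type ones. Ptafr, the receptor for platelet-activating factor, was 219 and 825 CPM against 1 UMI in each knockout-labelled library and 13.4-fold lower (3.54 to 114), and Gngt2, a G-protein gamma subunit, was at 48.7 and 525 CPM against 0 in both, at least 5.07-fold lower.

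Interferon-response genes were called lower for 5 and higher for 1 of 13 tested, with a median of -0.91. Over all genes 12.7% were called lower and 2.99% higher. Isg15, a ubiquitin-like interferon-induced protein, was 5.91-fold lower (3.00 to 13.3), and Ifitm1, at 2338 and 769 CPM in wild type against 252 and 399.7 CPM, was 4.63-fold lower. The exception was Ifitm6, 2.21-fold higher, whose log2 ratio was -0.0054 without the granule-rich cells. Adhesion genes gave 4 lower and 1 higher call of 12. Selplg, the P-selectin ligand, was 1072 and 994 CPM in wild type and 179.8 and 899 CPM in the knockout-labelled ones, so its lower value lay in the sham library. Tyrobp, an adaptor of activating receptors, was 2.04-fold lower with 5601, 7070.2, 2481 and 4097 CPM in the order of groups. Its log2 ratio scaled without S100a8 and S100a9 was -0.86, under the 2-fold limit.

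Secondary granule genes were called higher in knockout-labelled neutrophils for 4 of 11, with none lower and a median of 0.69, beside 2.99% of all genes called higher. Mmp8 of this list chose the cells, as did Ltf and Camp, so their levels are a description with no weight as a finding. Cd177, a surface and granule glycoprotein, was 5.13-fold higher, Mmp8 2.91-fold (2.11 to 4.06), Cybb 2.57-fold (1.81 to 3.65) and Hp, haptoglobin, 2.07-fold. Granule-rich cells held 35 UMIs of Cd177 and the other cells 1, and Cybb was 13.1-fold higher in them, and neither was testable without them. Between the injured libraries the log2 ratio of Cybb was 0.35. Without the granule-rich cells the log2 ratio of Mmp8 was 0.16 in place of 1.48. Retnlg, also a selecting gene, was 2.18-fold higher, all of it between the injured libraries (log2 3.33, against -0.045 between the sham ones). Tmsb10 was 4.93-fold higher, with 95% of its knockout-labelled injured UMIs from 1 cell. It was not testable without the cell that carries 4 monocyte genes.

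Genes of the IL-6 pathway were sparse in neutrophils. Il6 itself had no UMI in the 11 and 28 wild-type cells, and 5 and 2 UMIs in the 5 knockout-labelled sham and 7 knockout-labelled injured cells. In knockout-labelled sham the neutrophil level was 179.8 CPM (58.4 to 419.5), from 3 of 5 cells. Endothelial-gated cells of that library had 80.8 CPM, and 25.5% of them had an Il6 UMI. Whether the few Il6 UMIs in neutrophils were made by these cells was not tested. Il6ra was found with 27 UMIs in 23 cells, at 146, 319, 71.9 and 99.9 CPM in the order of groups, and the intervals of neighbouring libraries overlapped. Il6st, Osmr, Lif and Lifr had no UMI in the 51 cells. Osm, an IL-6 family cytokine made by neutrophils, had 536, 206, 179.8 and 449.7 CPM.

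Downstream, Stat3 had 268, 263, 179.8 and 349.8 CPM and its feedback inhibitor Socs3 48.7, 319, 108 and 99.9 CPM, with overlapping intervals between most libraries and 37 and 24 UMIs in all. Csf3r was 2094 CPM (1675 to 2587) in wild-type sham and 1069, 863 and 799 CPM in the other 3. Of 9 genes of the list tested between genotype labels, Jak1, a receptor-bound kinase, was 2.43-fold lower and Pim1, a STAT-induced kinase, 3.07-fold lower in knockout-labelled cells, and none was higher, with a median of -0.74. Over all genes 12.7% were called lower. Scaled without S100a8 and S100a9, the log2 ratio of Jak1 was -0.99, under the 2-fold limit, and that of Pim1 -1.37. Pim1 had 755 and 1575 CPM in the wild-type sham and injured libraries against 431 and 349.8 CPM, and the intervals of wild-type sham and knockout-labelled sham overlapped.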

How the data were processed

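The authors deposited whole-number UMI counts for each gene and barcode of 10x 3′ v3 libraries (chemistry per the labels). Per the submitters' processing notes the tool was Cell Ranger 6.0.1 and the build mm10. All 32285 gene identifiers were kept and every per-sample column was used. Cells were chosen by the limits given at the opening. Doublets were scored with Scrublet as an alternative and not removed (152 analysed cells scored highest, no neutrophil among them). UMI counts were summed per library and divided by their total (CPM, exact Poisson intervals); shares carry Clopper-Pearson intervals, ratios exact conditional binomial intervals. Log2 ratios use 50 CPM added to both sides. A count of 0 was set to a floor of 3. Positions are from GENCODE vM21, promoters from RefSeq GRCm38.p6. The members, lists and markers were chosen with earlier results of these data known. Genes are named where they selected the cells, where they lead a list by level or were called, where they rank among the 20 highest ratios to other cells or the 12 largest changes, and for the IL-6 pathway and marker genes. Of 339 listed symbols, Clec7a, Mx1 and Aldoa found no match by name. Aldoa was in the matrices under a symbol shared between gene identifiers, so it was tested but left out of the listed genes. Comparison cells were gated on marker genes: microglia-gated on at least 3 of 4 microglia genes. Results on some genes are not reported here. The calling step was tested on simulated counts with counting error alone. They held no spread between cells or libraries, so that test does not bear on how reliable the calls are under such spread. Python 3.11.15, numpy 2.4.6, scipy 1.17.1, pandas 2.3.3, scanpy 1.11.5 and matplotlib 3.10.9 were used.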

Additional observations from a re-analysis of the deposited data

Results flagged for a closer look

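Of 179 genes tested within both genotype labels, 3 were called in opposite directions with injury. Ccl6, a chemokine of myeloid cells, had a log2 injured to sham ratio of -1.51 in wild type and 1.28 in the knockout-labelled pair, from 2338 and 788 CPM in the wild-type sham and injured libraries and 1043 and 2598 CPM in the knockout-labelled ones. Nfkbia, the NF-kB inhibitor, was at 1.99 and -1.21, from 341, 1500.3, 1222 and 499.7 CPM. The mitochondrial gene mt-Nd2 was at -1.01 and 1.08, from 1899.6, 919, 827 and 1799 CPM. With 1 library per group the difference between the pairs was not tested.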

How the results depend on the processing

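No paired analysis was possible because each group is 1 library, so the groups compared share fewer than 2 replicate numbers. With 7 and 5 neutrophils in the knockout-labelled libraries and no replicate, counting error is wide for all but the most abundant genes. Settings that leave out cells with monocyte genes or granule-rich cells were chosen after seeing the data. Among cells of at least 2000 UMIs and 1000 genes there were 20 neutrophils, with shares of 0.143% in wild-type injured and 0.0840% in knockout-labelled injured and share ratios of 0.127 and 0.200. In those cells 58 genes were called lower with injury, and Ifi27l2a (-0.19), Il1b (-0.57), Isg15 (-1.24) and the medians of the ageing list (-0.41) and the survival list (-0.31) changed sign, and 12 genes were higher and 35 lower by genotype label. Without a limit on microglia markers the wild-type sham share was 2.02%, 74 genes were higher and 94 lower with injury, and Egr1 (-1.11), Fcgr3 (-0.46) and the medians for iron handling (-0.071) and dissociation (-0.52) changed sign. By genotype label 74 were then higher and 281 lower, with Apoe (2.06), Cd44 (0.14), Cd63 (0.44), Ifitm2 (0.075), Il1b (0.27), Tyrobp (0.16) and the adhesion (0.14) and pattern recognition (0.18) medians changing sign. With injury, calls higher and lower came to 63 and 17 with 200 CPM added, and to 504 and 161 without a UMI minimum. Higher calls were 68 with 2 of 6 neutrophil genes required and 75 with cells weighted equally. Lower calls were 61 scaled without the S100 pair and 58 with median-of-ratios scaling. The knockout-labelled pair gave 49 and 18, with Retnlg at 0.40 and the angiogenic and matrix median at 0.062. By genotype label the counts were 8 and 36 with 200 CPM added, 213 and 418 without a UMI minimum, 35 and 55 without the S100 pair, 42 and 45 with median-of-ratios scaling, and 10 and 44 in the sham pair, where Retnlg was -0.045 and the ageing median 0.59. Higher calls were 35 with cells weighted equally and 31 without granule-rich cells, where Ifitm6 (-0.0054) and Wfdc21 (-0.041) changed sign. Of 845 values of 44 named genes under the injury alternatives 733 stayed at 2-fold or more in the same direction, and of 884 values of 46 genes under the genotype ones 722 did. Leaving out Scrublet doublets and dropping the UMI minimum could not move any of these values, yet both are counted as unchanged. Settings in which a gene could not be tested are not counted, so the tallies overstate stability. The cause of the changes with setting was not tested.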
